A study of Mus musculus with 44 samples.

Results

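The 7 genes described here encode the MHC class II presentation machinery of the mouse. They were found by symbol in both count tables, as 7 of 55487 gene rows. Cd74 (ENSMUSG00000024610) encodes the invariant chain, and H2-Aa (ENSMUSG00000036594), H2-Ab1 (ENSMUSG00000073421) and H2-Eb1 (ENSMUSG00000060586) encode class II chains. H2-DMa (ENSMUSG00000037649) and H2-DMb1 (ENSMUSG00000079547) encode the peptide-exchange partners, and Ciita (ENSMUSG00000022504) encodes the class II transactivator.

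RNA was sequenced from the nucleus accumbens, the ventral striatum, after infusion of a virus that carried RXRa, the nuclear receptor known as retinoid X receptor alpha, or a fluorescent control. Bulk tissue came from males, with 4 libraries of HSV-GFP and 4 of HSV-RXRa-GFP, both herpes simplex vectors, and was made from poly(A) RNA. Nuclei sorted as D1 or D2, the striatal neuron types named for the dopamine receptors Drd1 and Drd2, came from both sexes and from ribosome-depleted total RNA. Their vector was AAV9-CAG-DIO-EGFP or AAV9-CAG-DIO-EGFP-P2A-RXRa, an adeno-associated virus with the CAG promoter whose insert needs Cre recombinase. The sorted groups held 5 EGFP and 4 RXRa libraries for D1 females, 5 and 4 for D1 males, 4 and 4 for D2 females, and 5 and 4 for D2 males. A further sorted library, whose title names RXRa and whose vector label names EGFP, entered no comparison. The labels name neither strain, age nor Cre line, and do not say that libraries of a group came from separate animals. The p-values therefore measure the spread between libraries, which may be technical.

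MHC class II molecules present peptides from endocytosed proteins to CD4+ T cells. An alpha and a beta chain assemble with the invariant chain, which blocks the groove until proteases cut it in the endosome, and the H2-DM heterodimer then exchanges the remaining fragment for a peptide. In brain, class II is known mainly from border macrophages, dendritic cells, infiltrating leukocytes and activated microglia rather than from neurons. Ciita is the switch of the system: interferon gamma induces it, in part through Irf1, and it acts on promoters already bound by the RFX complex at the X box and by NF-Y at the Y box.

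Those boxes can be read in the reference. RefSeq windows from 250 bases before to 50 after a gene start (GRCm38.p6) were at hand for 4 of the 7 members, H2-Aa, H2-Eb1, H2-DMb1 and H2-DMa, as 5 windows. Each was searched on both strands for GNAACT, the core of an X box, followed 25 to 40 bases later, from start to start, by GATTGG, the CCAAT letters of a Y box on the other strand. The motifs cannot overlap at that spacing, and letters and spacing were chosen after the sequences had been seen. Stretches of 2 genes that hold the pair are shown 5′ to 3′ on the gene's strand, with the pair in capitals. A stretch at 1 start of H2-DMa, which does not hold it, is shown in the same way. Whether the letters relate to any bulk value described further on was not tested. H2-Aa is read from chr17:34287834-34287933 on the minus strand, H2-Eb1 from chr17:34305757-34305856 on the plus strand and H2-DMa from chr17:34122722-34122821 on the plus strand.
H2-Aa: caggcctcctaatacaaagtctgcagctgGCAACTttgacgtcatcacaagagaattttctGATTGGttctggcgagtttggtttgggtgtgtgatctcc
H2-Eb1: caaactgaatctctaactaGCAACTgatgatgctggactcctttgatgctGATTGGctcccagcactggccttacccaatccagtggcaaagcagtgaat
H2-DMa: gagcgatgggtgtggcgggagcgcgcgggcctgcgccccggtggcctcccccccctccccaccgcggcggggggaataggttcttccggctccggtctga

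The X box core began 81 bases before the start of H2-Aa and 91 before that of H2-Eb1, and the Y box letters followed 32 and 31 bases later. The window of H2-DMb1 (not printed) held the pair as well, 94 bases before its start with a spacing of 32. Neither of the 2 H2-DMa windows, chr17:34122582-34122881 and chr17:34125268-34125567, held it. The annotated gene runs on to base 34139101, and any start further along was not searched. The gene as a whole is therefore not shown to lack the pair. Of all 32851 RefSeq windows of that length, 0.253% held the pair, 42.8% held GNAACT and 16.1% held GATTGG. A match is a description of letters and not evidence that a factor was bound in these samples.

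The genes lie close together in the class II region of the mouse H2 complex, apart from Cd74 and Ciita. On GRCm38 (GENCODE M21) H2-DMa spans chr17:34119541-34139101, H2-DMb1 chr17:34153072-34160230, H2-Ab1 chr17:34257689-34269419 and H2-Eb1 chr17:34305867-34316674, all on the plus strand. H2-Aa spans chr17:34282744-34287823 on the minus strand and Ciita chr16:10480059-10528418 on the plus strand. Some counts may be shared with neighbours, since the strand setting of the counting is not given in the sources used here. H2-DMa overlaps Brd2 on the opposite strand by 3094 bp and 3 other annotated genes, H2-Eb1 overlaps the antisense gene Gm20513 by 2204 bp, and Ciita overlaps Dexi by 25888 bp. H2-DMb1 shares 22.7% of its 50-base transcript words with its paralog H2-DMb2, so reads could be split between the copies.

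Vector RXRa counts followed the labels. The 4 bulk GFP libraries had 0 counts of it and the 4 bulk RXRa libraries 22.1 to 37.7 CPM (counts per 1e6, TMM-scaled). By library totals, the 19 sorted control libraries had at most 0.819 CPM and the 16 sorted RXRa libraries 45.4 to 557 CPM. Total counts were 21567565 to 29167142 in bulk and 12211655 to 27757463 in sorted libraries. Drd2 was higher in every D2 library (519 to 1777 CPM) than in every D1 library (48.9 to 106 CPM, both TMM-scaled), while Drd1 ranged from 30.6 to 83.7 CPM in D1 and from 6.48 to 38.6 CPM in D2.

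The bulk comparison asks what RXRa overexpression changed in whole tissue. The invariant chain gene Cd74 and the class II alpha chain gene H2-Aa rose with RXRa, by fitted folds of 2.90 and 3.14. The beta chain genes H2-Ab1 and H2-Eb1 and the transactivator gene Ciita had fitted folds of 2.64, 2.95 and 2.18 without passing the adjusted threshold. H2-DMa, in contrast, had a fold of 1.07. In bulk tissue a larger number of cells that express these genes and more RNA per cell cannot be told apart.

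Cd74, the chaperone of class II assembly, had 66.8, 66.9, 32.5 and 31.9 CPM in GFP libraries 1 to 4 and 91.3, 194.2, 99.6 and 190.0 CPM in RXRa libraries 1 to 4. Every RXRa library lay above every GFP library, and within each arm the libraries split into a lower and a higher pair. The log2 fold change was 1.54 (SE 0.34, n = 4 and 4) with an adjusted p of 0.0438 in edgeR's quasi-likelihood test, a fold of 2.90. H2-Aa, the alpha chain of the I-A molecule, had 31.0, 27.7, 12.2 and 13 CPM with GFP and 40.3, 85.7, 48.0 and 89.8 CPM with RXRa. The groups again did not overlap, and the low GFP libraries were again 3 and 4 and the high RXRa libraries 2 and 4. Its log2 fold change was 1.65 (SE 0.37, edgeR adjusted p = 0.0444), a fold of 3.14.

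H2-Ab1, the beta chain that pairs with H2-Aa, had 43.9, 41.8, 17.2 and 17.2 CPM with GFP and 53.9, 107, 53.9 and 102 CPM with RXRa. Its groups did not overlap, and it had a log2 value of 1.40 (SE 0.38, edgeR adjusted p = 0.0771). H2-Eb1, the beta chain of the I-E molecule, had 29.3, 30.6, 12.2 and 12.5 CPM with GFP and 39.2, 82.3, 43.9 and 84.2 CPM with RXRa. Its groups were likewise separate, and the log2 fold change was 1.56 (SE 0.38, edgeR adjusted p = 0.0561). The 4 genes of the invariant and class II chains thus had a common library profile, although only Cd74 and H2-Aa passed the threshold of 0.05.

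Ciita, which drives the others, was the member with the lowest level. It had 7.42, 6.65, 3.03 and 2.89 CPM with GFP and 8.27, 15.4, 7.51 and 12.4 CPM with RXRa. The highest GFP library lay just under the lowest RXRa library, so the groups did not overlap, and the log2 fold change was 1.13 (SE 0.35, edgeR adjusted p = 0.113).

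The DM pair exchanges peptides on class II, and its 2 genes differed in their values. H2-DMb1 had 11.1, 10.5, 5.69 and 6.52 CPM with GFP and 11.5, 19.9, 11 and 19 CPM with RXRa. RXRa 3 lay just under GFP 1, so the groups overlapped at their edge, and the log2 fold change was 0.86 (SE 0.27, edgeR adjusted p = 0.115). H2-DMa had 36.5, 34.6, 24.0 and 27.4 CPM with GFP and 27.7, 41.1, 24.5 and 37.7 CPM with RXRa. Its groups overlapped over most of their range, and its log2 fold change was 0.10 (SE 0.19, edgeR adjusted p = 0.805).

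**Figure D1:**
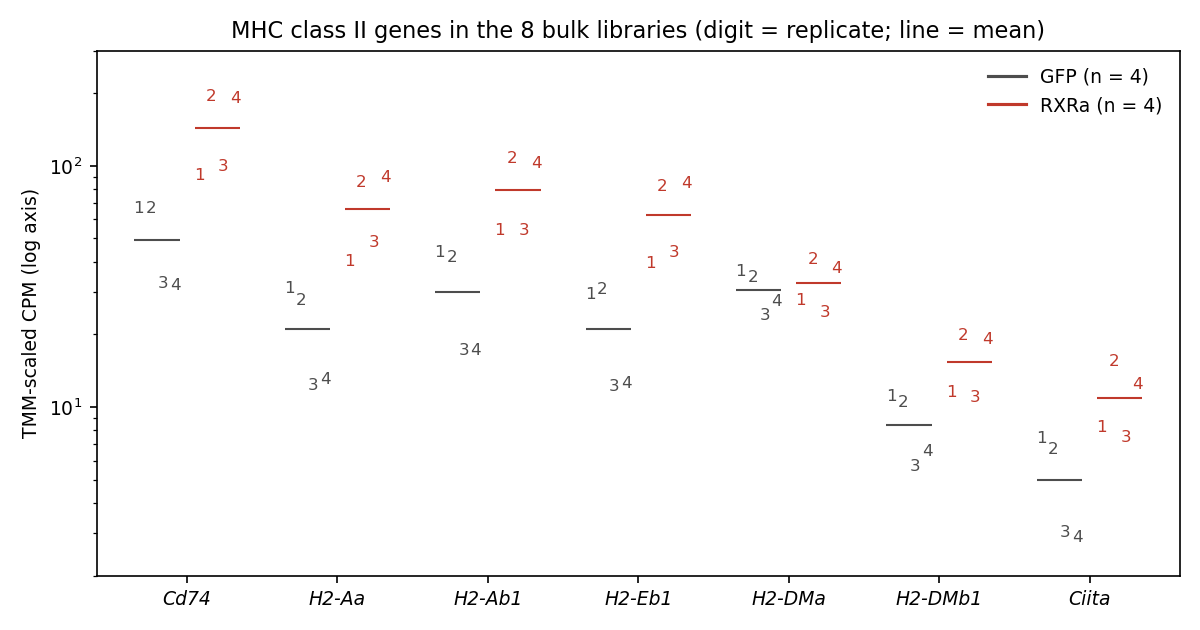
TMM-scaled CPM on a log axis for the 7 class II genes in the 8 bulk libraries; each digit is a library with that replicate number, the short lines are group means, grey is GFP (n = 4) and red is RXRa (n = 4). Cd74 reaches 31.9 to 66.9 CPM with GFP and 91.3 to 194.2 CPM with RXRa, while the H2-DMa groups overlap.

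In all, 2 of the 7 members were called higher and 0 lower, against 3.01% of the 18579 genes tested called higher, 0.689% called lower and 3.70% called in either direction. For 5 of the 7, all but H2-DMa and H2-DMb1, every RXRa library exceeded every GFP library, as did 6.63% of all genes tested. An unadjusted p under 0.05 was found for 6 of the 7 (21.5% of all genes). All 7 members had values above 0 and a median log2 fold change of 1.40, and the median over all genes tested was -0.02. All 7 passed the filter on low counts in both tables.

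The 2 calls depended on which libraries were used. Leaving out GFP 2, 3 or 4, or RXRa 2, 3 or 4, each left 0 members called, with 243, 402, 9, 333, 292 and 175 genes called in the whole table. Without GFP 1 there were 2 members called and without RXRa 1 there were 3. Over all 8 fits the whole table had 9 to 1016 genes called. The log2 fold change of Cd74 stayed between 1.36 and 1.72 in those 8 fits, with edgeR adjusted p from 0.0271 to 0.146, and that of H2-Aa between 1.46 and 1.90. DESeq2 called 6 of the 7, all but H2-DMa, and the share of all genes it called is not given here.

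Levels were compared between genes per kb of exon, using the length of all annotated exons merged, which is longer than any single transcript. In GFP tissue Cd74 led with 29.5 ± 11.9 CPM per exon kb (SD, n = 4). H2-Ab1 (11.7 ± 5.78), H2-Eb1 (10.9 ± 5.24) and H2-DMa (8.88 ± 1.72) followed, and these neighbours differed by less than their spread. H2-Aa (5.53 ± 2.56) and H2-DMb1 (5.03 ± 1.63) were also within each other's spread, and Ciita was last with 0.524 ± 0.249 CPM per exon kb. In RXRa tissue the order was Cd74 (85.6 ± 33.3), H2-Eb1 (32.1 ± 12.4), H2-Ab1 (30.9 ± 11.4), H2-Aa (17.4 ± 6.69), H2-DMa (9.50 ± 2.29), H2-DMb1 (9.12 ± 2.83) and Ciita (1.14 ± 0.389 CPM per exon kb, SD, n = 4). H2-DMa was above its partner H2-DMb1 by more than their spread in control tissue and within that spread with RXRa.

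Ratios within a library, taken here between levels per exon kb, do not depend on scaling between libraries. The ratio of H2-DMa to H2-DMb1 was 1.60 to 2.05 in the 4 GFP libraries and 0.967 to 1.17 in the 4 RXRa libraries. The ratio of H2-DMa to H2-Aa was 1.30 to 2.31 with GFP and 0.462 to 0.757 with RXRa. Ciita relative to H2-Aa was 0.0881 to 0.0987 with GFP and 0.0551 to 0.0817 with RXRa. The 2 groups did not overlap in any of these 3 ratios. They overlapped in the other 3: Cd74 to H2-Aa was 4.88 to 6.01 with GFP and 4.69 to 5.13 with RXRa, and H2-Eb1 to H2-Aa was 1.85 to 2.15 and 1.79 to 1.90. H2-Ab1 to H2-Aa was 1.95 to 2.23 with GFP and 1.66 to 1.98 with RXRa, and only RXRa 1 reached into the GFP range. A ratio within a library shows unequal change and not which gene changed.

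The likeness of bulk profiles was described as the root mean square difference of centred log2 CPM from Cd74 over the 8 libraries, among 16006 genes with a mean of at least 1 CPM. H2-Eb1, H2-Ab1 and H2-Aa ranked 2, 3 and 4, with differences of 0.0896, 0.110 and 0.111. Ciita ranked 29 (0.230), H2-DMb1 214 (0.369) and H2-DMa 2029 (0.778). Among the 5 most similar genes outside the family were Itgb7 (rank 1, 0.0794), Traf1 (0.120), Sirpb1a (0.143) and Gimap9 (0.147). Itgb7, a leukocyte integrin chain, had 6.61, 7.56, 3.55 and 3.71 CPM with GFP and 10.3, 20.3, 10.4 and 19.6 CPM with RXRa, the same pairs of low and high libraries as Cd74. The points share 8 libraries and their depth, and the ranking carries no test.

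The wider class II pathway was uneven. Calls in this list and in the bulk lists that follow stand beside 3.01% of all genes called higher and 0.689% called lower. The lists were chosen with earlier results of these data known. Among accessory chains and paralogs 1 of the 4 tested was called higher: H2-Eb2, a class II beta-like chain, with 0.177, 0.108, 0.222 and 0.0750 CPM (5, 3, 6 and 2 counts) with GFP and 0.429, 1.10, 0.507 and 0.526 CPM (11, 32, 11 and 13 counts) with RXRa. Its groups did not overlap, and on these low counts its log2 change was 2.13 (SE 0.44, edgeR adjusted p = 0.0346). H2-Oa and H2-Ob, the chains of the DM inhibitor H2-O, had 0.71 (SE 0.24) and 0.58 (SE 0.24) and were not called. H2-Ea-ps, a pseudogene of the I-E alpha chain, had 0 counts in all 8 bulk libraries and was not tested. The list's median log2 fold change was 0.65.

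Of 9 genes that process antigen for class II, 0 were called by edgeR, with 2 at an unadjusted p under 0.05 and a median of 0.16. The protease gene Ctss, which cuts the invariant chain, had 0.45 (SE 0.17, edgeR adjusted p = 0.170). The thiol reductase gene Ifi30 had 0.89 (SE 0.26, edgeR adjusted p = 0.0960). Among 8 genes for the factors at the X and Y boxes, 0 were called and 2 had an unadjusted p under 0.05, and the median was -0.01. The RFX subunit gene Rfx5 had 21.5, 23.1, 24.2 and 20.5 CPM with GFP and 27.3, 27.8, 25.4 and 26.8 CPM with RXRa. Its groups did not overlap, with a log2 value of 0.27 (SE 0.07, edgeR adjusted p = 0.0710), and Rfxap had -0.18 (SE 0.07, edgeR adjusted p = 0.194).

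Beside 3.01% of all genes called higher and 0.689% called lower, 4 of 10 genes on the interferon gamma route to Ciita rose and 0 fell. Their median was 0.65. Among them Socs1, a feedback inhibitor of the route, rose by 1.37 (SE 0.22, edgeR adjusted p = 0.0156), the interferon factor gene Irf2 by 0.55 (SE 0.08, edgeR adjusted p = 0.0132) and the receptor chain gene Ifngr2 by 0.27 (SE 0.06, edgeR adjusted p = 0.0370). Irf1, which acts on the interferon-responsive Ciita promoter, had 68.7, 64.4, 26.2 and 40.2 CPM with GFP and 97.1, 125, 82.9 and 96.5 CPM with RXRa. Its groups did not overlap and its log2 fold change was 1.01 (SE 0.27, edgeR adjusted p = 0.0776). The ligand gene Ifng itself was scarce, with 19, 16, 2 and 11 counts in the GFP libraries and 26, 85, 20 and 43 in the RXRa libraries, and its log2 value was 1.93 (SE 0.53, edgeR adjusted p = 0.0791).

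Costimulation genes, whose products accompany class II on antigen-presenting cells, had a median of 0.90 among the 5 tested. Of these 2 rose, beside 3.01% of all genes called higher. Cd40, a receptor for T cell help, had 5.48, 7.34, 2.77 and 4.91 CPM with GFP and 11.2, 18.8, 14.5 and 13.6 CPM with RXRa. The groups did not overlap, and Cd40 rose by 1.50 (SE 0.27, edgeR adjusted p = 0.0212). The checkpoint ligand gene Cd274 rose by 1.08 (SE 0.25, edgeR adjusted p = 0.0497), and Cd86 had 0.90 (SE 0.21, edgeR adjusted p = 0.0508). Pdcd1lg2 did not pass the filter.

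The marker sums of monocytes and dendritic cells were higher in the same bulk libraries as the class II genes, although only some single markers were called. A sum is weighted towards its most abundant markers. The part of any marker list in the result was not tested. Summed over 6 monocyte markers, the 4 GFP libraries had 105, 87.4, 44.1 and 63.8 CPM and the 4 RXRa libraries 163, 296, 226 and 302 CPM. The groups did not overlap. Beside 3.01% of all genes called higher, 3 of the 6 markers rose. They were Ly6c2 by 2.02, Ms4a4c by 1.69 and Plac8 by 1.56 on the log2 scale (edgeR adjusted p of 0.0142, 0.0132 and 0.0156). The others on that list, Ccr2, Chil3 and F10, were not called higher. Dendritic cell markers, 10 in all, summed to 36.2, 36.0, 25.2 and 22.5 CPM with GFP and 38.8, 72.5, 48.3 and 62.5 CPM with RXRa. These groups did not overlap either, and 1 of the 9 tested rose, the migration receptor gene Ccr7 by 1.96 (edgeR adjusted p = 0.0344). The antigen-presenting subset genes Xcr1 and Clec9a had 1.46 and 1.58 (edgeR adjusted p of 0.0548 and 0.0778).

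Among 10 T cell markers, 7 rose, beside 3.01% of all genes called higher, and the median was 1.64. Cd3d had 19, 34, 17 and 11 counts with GFP and 46, 167, 45 and 101 with RXRa, and it rose by 2.22 (SE 0.44, edgeR adjusted p = 0.0316). The summed T cell level was 55.4 to 70.0 CPM with GFP and 66.9 to 127 CPM with RXRa, most of it from Cd4, which had 33.5 to 54.8 CPM and a log2 fold change of -0.22 (SE 0.14). The 8 B cell markers summed to 25 to 34.9 CPM and 30.9 to 58.9 CPM, so both sums overlapped between the arms, and 0 of the 6 tested were called by edgeR, with 2 at an unadjusted p under 0.05. The leukocyte gene Ptprc rose by 1.21 (SE 0.26, edgeR adjusted p = 0.0392), as 1 of 7 markers shared by all leukocytes, which summed to 317 to 545 CPM with GFP and 478 to 795 CPM with RXRa.

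Resident macrophage markers gave other values. The 10 microglia markers summed to 818 to 1243 CPM with GFP and 877 to 1230 CPM with RXRa. The median change was 0.02 on the log2 scale, and 0 were called by edgeR (2 at an unadjusted p under 0.05). The 8 markers of border and perivascular macrophages summed to 46.7 to 89.1 CPM and 63.9 to 91.3 CPM, with a median of -0.02 and 0 of the 7 tested called (2 at an unadjusted p under 0.05). No marker of any of these lists was at 0 in all 8 bulk libraries. Within arms, GFP 3 and GFP 4 were the 2 lowest GFP libraries for Cd74 and for the monocyte, dendritic cell, microglia, border macrophage and all-leukocyte sums, and RXRa 2 and RXRa 4 the 2 highest RXRa libraries for the same measures. T and B cell sums shared the high RXRa pair but not the low GFP pair: GFP 3 had the highest T cell sum of its arm (70.0 CPM) and GFP 1 the lowest (55.4 CPM), and the B cell sums of GFP 3 and GFP 1 were 34.5 and 34.9 CPM. A list outside the immune cells had both pairs too. Astrocyte marker sums were 2853, 2652, 2470 and 2525 CPM in GFP 1 to 4. In RXRa 1 to 4 they were 2432, 2949, 2743 and 3239 CPM. Sums for projection neurons, oligodendrocytes and endothelium did not have both pairs. The labels give no batch or dissection that would divide the libraries in this way.

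**Figure D2:**
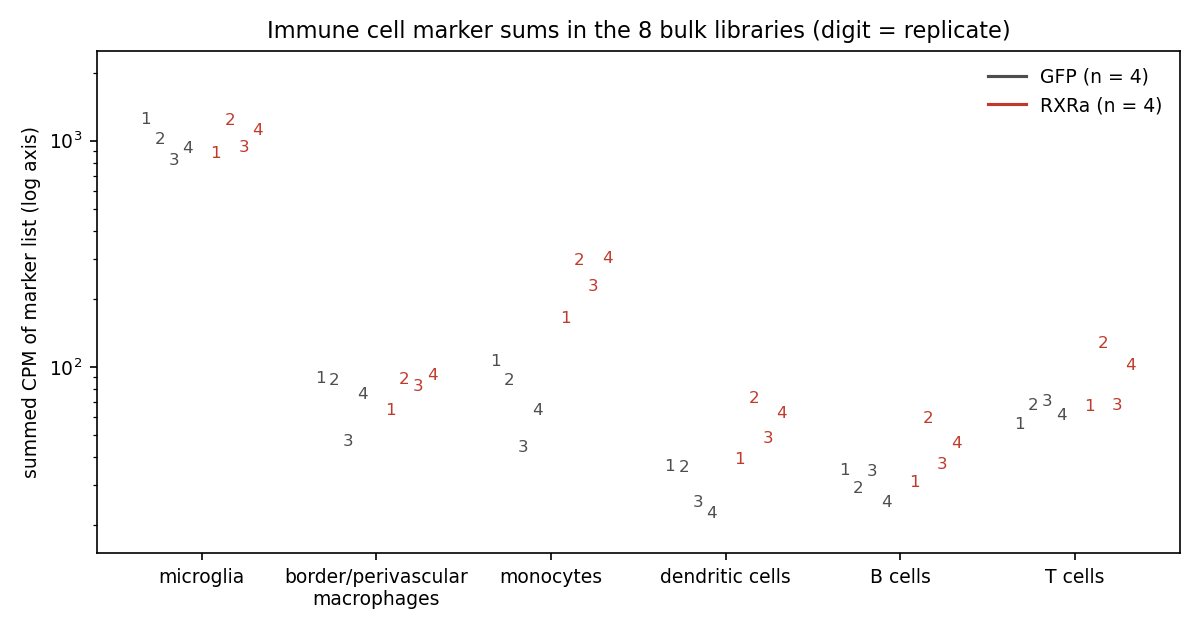
Summed CPM (log axis) of 6 lists of immune cell markers in the 8 bulk libraries; each digit is a library with that replicate number, grey for GFP (n = 4) and red for RXRa (n = 4). Monocyte sums are 44.1 to 105 CPM with GFP and 163 to 302 CPM with RXRa, while microglia sums overlap.

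Lists for other cells of the tissue were summed in the same way. Their calls stand beside 3.01% of all genes called higher and 0.689% called lower. The 10 markers of striatal projection neurons summed to 4604 to 5242 CPM with GFP and 4065 to 4682 CPM with RXRa, and Gpr6, a receptor gene of D2 neurons, fell by 0.39 (edgeR adjusted p = 0.0385) as the only 1 of the 10 called. Of 6 endothelial markers 2 rose, Cdh5 by 0.59 and the interferon-responsive gene Ly6c1 by 0.67 (edgeR adjusted p of 0.0234 and 0.0122). The endothelial sums did not overlap, at 234 to 300.2 CPM with GFP and 306 to 339 CPM with RXRa. Of 6 astrocyte markers 1 rose, Aqp4 by 0.57 (edgeR adjusted p = 0.0478), and 0 of 6 oligodendrocyte markers were called by edgeR (2 at an unadjusted p under 0.05, median -0.31).

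Sorted nuclei were compared next, to ask how the same receptor changed D1 and D2 neurons. Per kb of gene body, most class II genes had values close to those of genes without bulk reads in these libraries. Per exon kb this differed, as given further on. Total RNA of sorted nuclei gave counts over nearly all annotated genes, so a measure of it was taken from silent genes. These were the 1576 protein-coding genes on autosomes, 5 kb or longer, at 0 counts throughout bulk. Their median was 0.303 to 0.596 CPM per kb of gene body (by library totals) in the 35 assigned libraries.

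Relative to that median, the same measure for Cd74 was 1.09 (median over 35 libraries, range 0.662 to 1.32). The value was 1.02 for H2-Ab1, 0.830 for H2-Eb1 and 1.11 for Ciita. In 26, 33, 23 and 26 of the 35 libraries, in that order, these 4 genes lay between the lower and the upper quartile of the silent genes. H2-DMa had 1.32, H2-DMb1 1.56 and H2-Aa 1.83, and they lay between those quartiles in 12, 3 and 3 libraries. H2-Ea-ps, with 0 counts in all bulk libraries, had 1.74, so a value of that size also occurred for a gene without bulk reads. Genes of striatal neurons had higher medians over the pooled D1 and D2 libraries, 14.2 for Drd1, 6.59 for Ppp1r1b and 3.50 for Drd2. The lowest Drd2 value, 1.38, was under the median of H2-Aa. It came from D1, where Drd2 was lower in every library than in any D2 library.

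**Figure D3:**
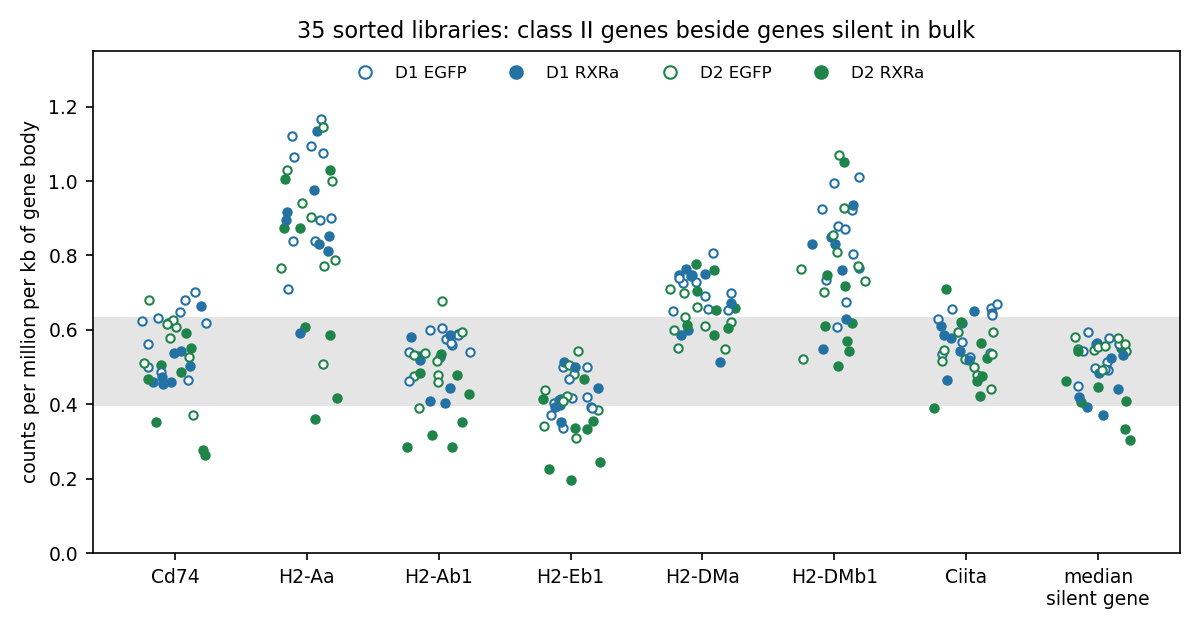
CPM by library totals, per kb of gene body, for the 7 class II genes in the 35 sorted libraries, with the median silent gene at the right; blue is D1, green is D2, open circles are EGFP and filled circles RXRa, and the grey band runs between the median lower and upper quartiles of the silent genes. Cd74, H2-Ab1, H2-Eb1 and Ciita scatter around the band, and H2-Aa and H2-DMb1 lie above it in most libraries.

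In counts, Cd74 had 38 to 162 per sorted library and 2.86 to 5.62 CPM. H2-Aa had 2.19 to 5.43 CPM, H2-Ab1 4.01 to 7.34 CPM, H2-Eb1 2.55 to 5.43 CPM and H2-DMb1 3.64 to 7.12 CPM. H2-DMa had 10.2 to 15.5 CPM and Ciita, the longest of these genes, 20.9 to 32.5 CPM. The comparison with silent genes depended on the length used. In D1 female EGFP nuclei, mean CPM per exon kb (TMM-scaled) was 3.96 for H2-DMa, 3.51 for H2-DMb1, 3.00 for Cd74 and 2.89 for Ciita. H2-Ab1 had 2.44, H2-Eb1 2.21 and H2-Aa 1.22. The median silent gene had 1.61 to 1.93 CPM per exon kb there (by library totals), above H2-Aa and under the others. Bulk and sorted levels were not compared, since poly(A) RNA of tissue and total RNA of nuclei differ in what they hold.

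In D1 nuclei no class II gene was called in females (0% of the 43902 genes tested), in males (0%) or over both sexes (0%), with edgeR. None had an unadjusted p under 0.05 in those 3 contrasts, beside 6.28%, 3.02% and 8.01% of all genes, and DESeq2 called none. Cd74 had 5.03 ± 0.446 CPM (SD, n = 5) with EGFP and 4.34 ± 0.269 CPM (SD, n = 4) with RXRa in females, and 4.97 ± 0.543 (SD, n = 5) and 4.79 ± 0.637 CPM (SD, n = 4) in males. These values overlapped between the vectors. Over both sexes the 7 log2 fold changes lay between -0.14 (Cd74, SE 0.10) and 0.11 (H2-Eb1, SE 0.10), with a median of -0.07 beside -0.01 over all genes, and the lowest edgeR adjusted p was 0.698. Ciita had 0.00 (SE 0.06).

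In D2 nuclei no member was called in females (0% of genes) or in males (0%) by edgeR or by DESeq2. In females 1 member (H2-DMa) had an unadjusted p under 0.05, against 25.2% of all genes, and in males 2 (H2-DMa and Ciita), against 19.7%. In females every RXRa library was under every EGFP library for Cd74 (5.56, 5.32, 5.10 and 4.95 CPM with EGFP, 4.54, 4.73, 2.94 and 4.77 CPM with RXRa), as for 3.75% of all genes. The log2 fold change of Cd74 there was -0.31 (SE 0.15, edgeR adjusted p = 0.200). In males every RXRa library was above every EGFP library for H2-DMa, as for 1.15% of all genes.

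Over both sexes in D2, 1 of the 7 was called, H2-DMa, and it was higher, beside 22.1% of all genes called (14.9% higher and 7.14% lower). It had 12.7, 11.6, 11.6 and 10.5 CPM in EGFP females, 14.6, 11.2, 15.1 and 13.8 CPM in RXRa females, 12.8, 11.4, 12.3, 10.6 and 12.1 CPM in EGFP males and 14.1, 14.8, 14.1 and 15.3 CPM in RXRa males. In females 1 RXRa library lay among the EGFP libraries, and in males the groups were separate. The log2 fold change was 0.27 (SE 0.07, edgeR adjusted p = 0.0137), a fold of 1.20. The call was lost without D2 female RXRa 4 (0.22, edgeR adjusted p = 0.0692, with 0 genes called in all) and without D2 male RXRa 5 (0.24, edgeR adjusted p = 0.0526, with 1633 called in all).

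The class II chains had values on the other side of 0. Cd74 had -0.25 (SE 0.11, edgeR adjusted p = 0.0816), H2-Eb1 -0.25 (SE 0.11, edgeR adjusted p = 0.0935) and H2-Ab1 -0.23 (SE 0.09, edgeR adjusted p = 0.0704). H2-Aa had -0.12 (SE 0.14), H2-DMb1 -0.10 (SE 0.11) and Ciita 0.13 (SE 0.06, edgeR adjusted p = 0.111). In all, 5 of the 7 had an unadjusted p under 0.05, against 37.1% of all genes, and the median of the 7 was -0.12 beside -0.04 over all genes.

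These D2 values depended on how libraries were scaled. With library totals in place of TMM, H2-DMa had 0.10 (edgeR adjusted p = 0.318). In that run 3 members were called lower, and the share of all genes called is not given here. They were Cd74 at -0.40, H2-Ab1 at -0.39 and H2-Eb1 at -0.40 (edgeR adjusted p of 0.0328, 0.0233 and 0.0347). The background moved with the vector: the median silent-gene density was 0.547 in EGFP and 0.435 in RXRa libraries of D2 females, 0.557 and 0.428 in D2 males, 0.513 and 0.438 in D1 females and 0.544 and 0.487 in D1 males. Striatal neuron markers moved too, with 7 of 10 higher in D2 over both sexes and a median log2 fold change of 0.70. With the silent-gene density as a covariate H2-DMa had 0.11 and Cd74 -0.10, 0 members were called and 0 genes in all were called. Since the density itself differed between the vectors, a call lost in that run does not bear on any single gene.

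**Figure D4:**
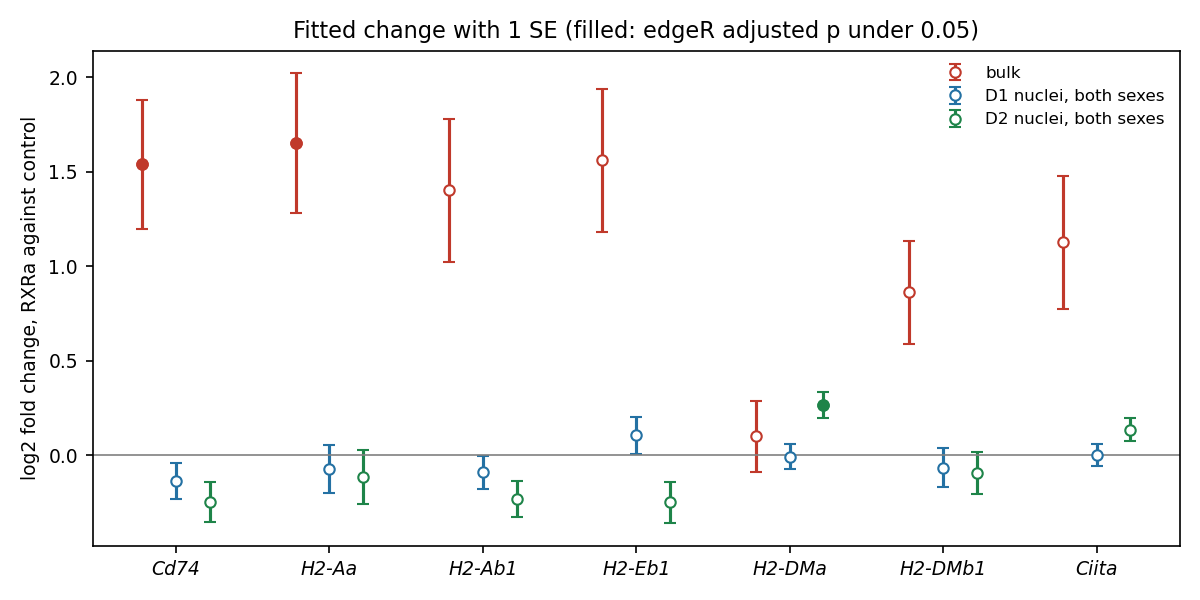
Fitted log2 fold change, RXRa against control, for the 7 class II genes in bulk tissue (red), D1 nuclei of both sexes (blue) and D2 nuclei of both sexes (green); bars are 1 SE and filled points have an edgeR adjusted p under 0.05. The bulk values of 6 genes lie between 0.86 and 1.65, whereas the sorted values of all 7 lie between -0.25 and 0.27.

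The effect of RXRa was also compared between groups of nuclei. For the difference between D2 and D1, 0 of 7 members were called by edgeR (0% of genes), and 2 had an unadjusted p under 0.05, beside 8.22% of all genes. H2-DMa had a difference of 0.27 (SE 0.10, edgeR adjusted p = 0.601) and H2-Eb1 of -0.36 (SE 0.15, edgeR adjusted p = 0.601), so the D2 value of H2-DMa was not shown to differ from that in D1. For the difference between the sexes 0 members were called by edgeR in D1 (0%) or D2 (0%), and none had an unadjusted p under 0.05, beside 2.08% and 3.02% of all genes. Under EGFP, D2 against D1, 0 of 7 were called by edgeR, beside 0.121% of all genes (0.0478% higher and 0.0729% lower), and 2 had an unadjusted p under 0.05, beside 10.5%. Those were Ciita at -0.20 (SE 0.06, edgeR adjusted p = 0.229) and H2-DMa at -0.19 (SE 0.07, edgeR adjusted p = 0.307). DESeq2 called no member in these 4 contrasts.

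In D2 over both sexes the pathway lists gave other genes than in bulk. Of the 8 promoter factor genes 5 rose, among them the RFX subunit gene Rfxap by 0.54 (SE 0.16, edgeR adjusted p = 0.0224) and the NF-Y subunit gene Nfyc by 0.29 (SE 0.07, edgeR adjusted p = 0.0130), with Nfyb, Creb1 and Zxdc. On the interferon gamma route 2 of 10 genes were called, among them the receptor kinase gene Jak2, which rose by 0.37 (SE 0.11, edgeR adjusted p = 0.0178). In antigen processing the ubiquitin ligase gene March1, which directs class II to degradation, rose by 0.28 (SE 0.09, edgeR adjusted p = 0.0310) and Ctss fell by 0.21 (SE 0.08, edgeR adjusted p = 0.0491), 2 of 9. None of 5 accessory chain genes and none of 6 costimulation genes were called by edgeR, with 1 and 2 at an unadjusted p under 0.05. All of these stand beside the 22.1% of genes called in that contrast. Its calls were lost with the silent-gene density as a covariate, as given above. With each library left out, 0 to 14766 genes of the whole table were called. In D1 over both sexes no gene of the 5 lists was called by edgeR, with 3 (H2-Ob, H2-Eb2 and Nfya) at an unadjusted p under 0.05.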

How the data were processed

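The authors deposited raw counts, whole numbers for each gene, in 2 tables, 1 of bulk tissue and 1 of sorted nuclei. Per the labels' protocols, reads were paired at 150 bp, to a stated minimum depth per library that was higher for sorted nuclei than for bulk. The submitters' processing notes name FastQC, Trimmomatic, HISAT2, Picard, featureCounts, Subread and the build GRCm38, without their roles. The annotation release, strand setting and treatment of introns are not given in the sources used here.

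Everything else was computed here. Counts were tested with edgeR 4.0.16 (quasi-likelihood test, filterByExpr, TMM) in R 4.3.3, bulk alone and the 35 assigned sorted libraries together as 8 groups, over 11 contrasts. A gene was called at a Benjamini-Hochberg adjusted p under 0.05 over all genes tested. Standard errors come from the fold change and the F statistic. Neither library sizes nor tests included the 2 vector rows. Alternatives were DESeq2 1.42.0, its size factors, library totals, no low-count filter, each library left out, a replicate block and, for sorted nuclei, the silent-gene density as a covariate. Replicates were compared first: chi-square divided by its degrees of freedom was 1.79 to 63.6 over the 72 pairs of a group, so each library counted as 1 sample. The test was tried on simulated counts.

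Symbols, positions and exon lengths come from GENCODE M21 on GRCm38, which matched 55394 of 55487 gene rows. The named genes are the 7 members, any gene of 5 pathway and 11 marker lists, and the 5 genes most like Cd74 in bulk; values of some of these genes are not reported here. The members and lists were chosen with earlier results of these data known.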

Additional observations from a re-analysis of the deposited data

Results flagged for a closer look

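Of 70 groups of a member tested for a sample far from the others, 4 were flagged, about what chance gives at 1 in 20 groups, and all 4 lay in sorted nuclei. Cd74 was lowest in D2 female RXRa 4, at 2.94 CPM, with the nearest library of that group at 4.54 CPM. H2-Aa was highest in D1 female RXRa 2, at 5.37 CPM, the nearest being 4.42 CPM. H2-Ab1 was lowest in D1 female RXRa 1, at 4.90 CPM, the nearest being 6.34 CPM. H2-DMb1 was highest in D2 female EGFP 1, at 7.12 CPM, the nearest being 5.22 CPM.

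The sorted library that entered no comparison, because its title and vector label disagree, had 15.2 CPM of H2-DMa by library totals (237 counts). The D2 female EGFP libraries had 10.8 to 13.7 and the D2 female RXRa libraries 11.5 to 13.8 on the same scale. This library had 2941 counts of vector RXRa, or 188 CPM by library totals, within the range of the sorted RXRa libraries and above every sorted control library.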

How the results depend on the processing

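The bulk count of 2 members called was 2 with DESeq2 size factors and with library totals, 4 with no low-count filter, 6 with DESeq2, 0 with the replicate block and 0 to 3 when each library was left out. The D2 count over both sexes, 1, was 1 with DESeq2 size factors and with no low-count filter, 3 with library totals, 2 with DESeq2, 0 with the replicate block, 0 with the density covariate and 0 to 3 when each library was left out. Leaving out D2 female RXRa 3 or D2 male RXRa 1 gave 1 member called within that sex. The count was otherwise 0, so both counts ranged from 0 to 1. Over the fits with each library left out, 0 to 6699 genes of the whole table were called in D2 females. In D2 males the range was 0 to 5986. The counts of 0 in the other 7 contrasts stayed at 0 in every alternative run. With each library left out, the whole table had 9 to 1016 genes called in bulk and 0 to 14766 in D2 over both sexes. For DESeq2, its size factors, library totals and no low-count filter, the share of all genes called is not given here. The member counts of those runs therefore have no background to be read against.

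Values near 0 changed sign. In D1 over both sexes H2-DMa was 0.0056 with DESeq2 size factors and 0.0055 with DESeq2, Ciita was -0.0739 with library totals and H2-Aa was 0.0431 with the density covariate. In D2 over both sexes Ciita was -0.0188 with library totals and H2-Aa 0.1109 with the density covariate. With each library left out, H2-DMa had -0.0303 to 0.213 in bulk and -0.0539 to 0.0314 in D1, and Ciita -0.0428 to 0.0185 in D1. The cause was not tested.

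Whether replicate numbers pair the samples cannot be decided from so few correlations. Same-numbered libraries correlated at -0.457 to 0.412 in bulk (2 of 4 over 0.1), and at -0.275 to 0.462 in the sorted groups. Values over 0.1 were found for 3 of 4 pairs in D1 females and 0 of 4 in D1 males. In D2 females it was 1 of 3 and in D2 males 2 of 4. Libraries of unlike number reached 0.436 in bulk and 0.299 in D2 males, where the highest same-numbered value was 0.462. With the replicate block Cd74 in bulk had 1.54 and an edgeR adjusted p of 0.0881, and 0 genes were called in the whole bulk table and 1 in D2 over both sexes.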

Other observations

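The immunoglobulin light chain gene Igkc, on the list of B cell markers, was singled out after its values were seen. It had 0.731 to 3.05 CPM (15 to 43 counts) in D2 female EGFP libraries and 0.278 to 0.617 CPM (6 to 11 counts) in the RXRa ones. In D2 males it had 0.818 to 4.43 CPM with EGFP and 0.437 to 0.630 CPM with RXRa, so the vectors overlapped in neither sex. Igkc fell by 1.74 on the log2 scale over both sexes (SE 0.32, edgeR adjusted p = 0.0111). In D1 over both sexes it had -0.68 (SE 0.30, edgeR adjusted p = 0.590), and in bulk 1.01 (SE 0.49, edgeR adjusted p = 0.281).

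Ptprc, the leukocyte gene that rose in bulk, fell by 0.27 in D2 nuclei over both sexes (SE 0.07, edgeR adjusted p = 0.0137). The monocyte gene Ms4a4c fell by 0.25 (SE 0.08, edgeR adjusted p = 0.0283), beside 7.14% of all genes called lower there. The D2 calls of Igkc, Ptprc and Ms4a4c were lost with the silent-gene density as a covariate, as were all others. That density differed between the vectors, so the loss does not bear on these genes in particular. With each library left out, 0 to 14766 genes of the whole table were called in that contrast. The sorted library without a group had 4.54 CPM of Cd74, 6.14 of H2-Ab1 and 28.7 of Ciita by library totals.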
